A study of Mus musculus with 2 samples.

Results

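The cluster consists of 6 microRNA (miRNA) genes that lie in introns of Htr2c, on the strand of that gene. They are Gm22650, Mir764, Mir1912, Mir1264, Mir1298 and Mir448, 6 of the 2202 miRNA genes in the count tables. They were chosen by annotated position and symbol, with earlier results of these data known. Gm24627, also in an Htr2c intron, was not listed and had 0 counts in both libraries. The libraries hold RNA under 30 nt from the hippocampus of 5xFAD/CAST mice, all adult females 8 to 10 months old. In 5xFAD animals a neuronal promoter drives human transgenes with mutations of inherited Alzheimer's disease, and CAST commonly stands for a wild-derived mouse strain. There is 1 group of 2 biological replicates, so the data give levels and the spread between libraries and no contrast between genotypes, ages or tissues. The labels do not say how many animals a library holds, and both replicates carry 1 donor entry, so that spread may be partly technical.

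Htr2c encodes a serotonin receptor that couples to G proteins and whose transcript is edited by adenosine deamination. It is known as a leading transcript of the choroid plexus, the epithelium that secretes cerebrospinal fluid, and it is also expressed by neurons in several brain regions. An intronic miRNA is cut as a hairpin from the primary transcript of its host, and Dicer then releases a short duplex. One strand of that duplex enters an Argonaute protein, where the bases near its 5′ end, the seed, pair with target messenger RNAs.

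The RefSeq table (GRCm38.p6) held 9 mature sequences for the 6 genes. These are shown in the order of the genes because the seeds show how far members resemble each other. Each is written 5′ to 3′, with the seed (bases 2 to 8) in capitals.
mmu-miR-3552 (from Gm22650): aGGCUGCAggcccacuucccu
mmu-miR-764-5p: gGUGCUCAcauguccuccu
mmu-miR-764-3p: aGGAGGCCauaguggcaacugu
mmu-miR-1912-3p: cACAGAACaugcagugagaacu
mmu-miR-1264-3p: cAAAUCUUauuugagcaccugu
mmu-miR-1298-5p: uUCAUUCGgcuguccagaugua
mmu-miR-1298-3p: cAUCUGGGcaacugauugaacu
mmu-miR-448-5p: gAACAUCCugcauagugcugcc
mmu-miR-448-3p: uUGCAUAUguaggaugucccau

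The 9 mature sequences carried 9 different seeds, so no 2 of them form a seed family. The arms mmu-miR-1264-5p and mmu-miR-1912-5p had no entry and were not compared. Their lengths ran from 19 to 22 nt. None of the 9 was contained in the hairpin of another gene among the 1005 hairpins of the table. A single mature miRNA of another gene shared a full seed with a member, mmu-miR-7062-5p with mmu-miR-764-3p. Its gene Mir7062 was at 1.59 CPM in replicate 1 and 5.03 in replicate 2, where CPM is the count per 1000000 counts on miRNA genes of the sense strand.

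Short matches between members were searched with all 9 seeds and with the 33 pairs of mature sequences from different members, and the longest are shown. The seed of mmu-miR-764-5p, GUGCUCA, also occurs on the 5′ side of the Mir1912 hairpin, at bases 15 to 21. RefSeq held no mature sequence from that side, so whether mmu-miR-1912-5p carries this seed could not be checked here. The first 30 bases of that hairpin are shown with the shared word in capitals.
Mir1912 hairpin, bases 1 to 30: uuagucucuaggauGUGCUCAuugcauggg
The word GUGCUCA is present in 15 of the 1005 hairpins, or 1.49%, read on the strand of the RNA. The longest run of perfect base pairs between mature sequences of different members joined mmu-miR-764-5p and mmu-miR-1264-3p. Bases 1 to 8 of the former are complementary to bases 12 to 19 of the latter, in capitals here.
mmu-miR-764-5p: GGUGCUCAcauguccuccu
mmu-miR-1264-3p: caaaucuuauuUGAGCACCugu
That 8-base word, UGAGCACC, is in 3 of 1738 mature sequences, or 0.173%. Both shares are those of the single word found and make no allowance for the search, so they do not show that the members are related. These matches were read from sequence alone, and pairing of the RNAs was not measured.

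Htr2c (ENSMUSG00000041380.13) spans 235 kb of the X chromosome in mm10, from 146962513 to 147197277 on the plus strand. Its transcript Htr2c-201 has 6 exons, with the start codon in exon 3. Intron 2, of 90.8 kb, lies before the coding sequence and holds 5 of the 6 members. Gm22650 (ENSMUSG00000092879.1) lies there from 146999405 to 146999509. Mir764 (ENSMUSG00000076458.1) follows from 147002259 to 147002366, at 2.75 kb from Gm22650. Mir1912 (ENSMUSG00000093039.1, 147009441 to 147009527) and Mir1264 (ENSMUSG00000093122.1, 147010601 to 147010686) are 1.07 kb apart. Mir1298 (ENSMUSG00000080331.1) lies alone, from 147064905 to 147065002, 54.2 kb beyond Mir1264 and 7.38 kb before exon 3. Mir448 (ENSMUSG00000065450.1, 147158210 to 147158321) is the only member in intron 4, between coding exons, 93.2 kb beyond Mir1298 and 11.2 kb before exon 5.

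The annotation places 7 miRNA genes in Htr2c introns. The gene outside the listed cluster is Gm24627 (ENSMUSG00000084713.2) in intron 4, from 147106939 to 147107076. It had 0 counts in both libraries, for which the limit, taken as 3 counts, is 0.957 CPM in the first library and 0.685 CPM in the second. No annotated miRNA gene lay on the opposite strand within 10000 bp of a member. The members had 0 counts in the antisense column of both libraries.

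**Figure D1:**
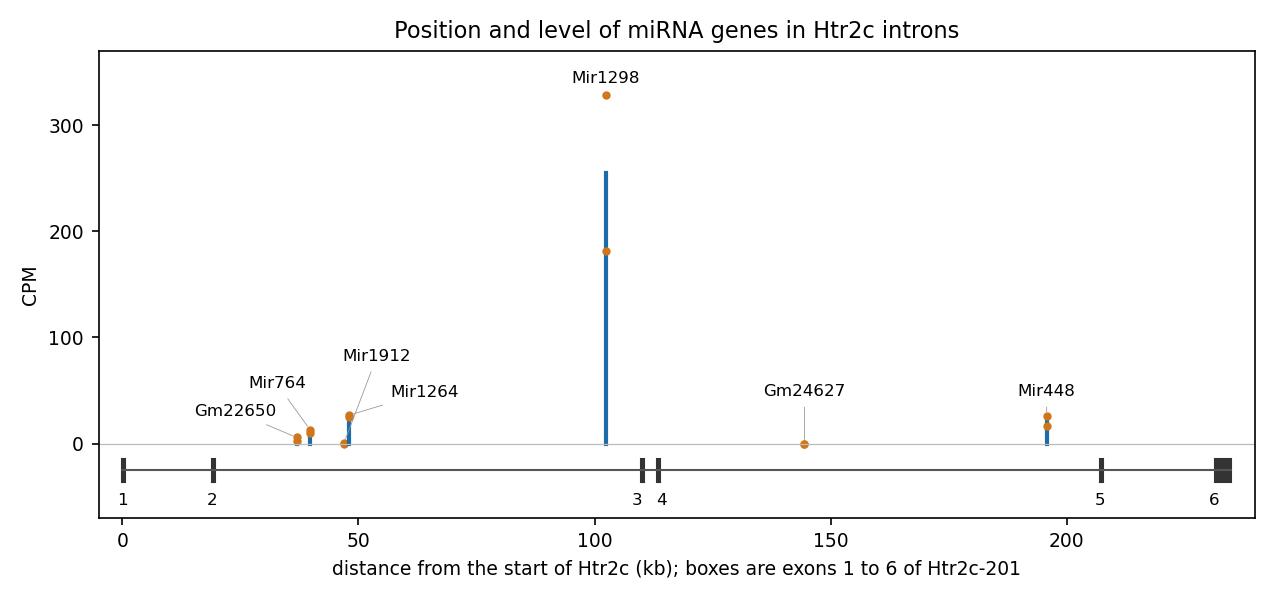
Mean CPM of each miRNA gene (blue bars) and both libraries (orange points) against distance in kb from the start of Htr2c, with the 6 exons of Htr2c-201 drawn below. Mir1298 stands at 255 CPM near exon 3, the other genes of intron 2 lie at 26.1 CPM or lower, and Gm24627 is at 0.

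The cluster was a small part of the miRNA pool. Replicates 1 and 2 had 3135960 and 4377622 counts on miRNA genes of the right strand, from 9962659 and 12761689 reads. The 6 genes together had 1253 of these counts in replicate 1 and 1031 in replicate 2. That is 0.0400% (exact Clopper-Pearson 95% interval 0.0378% to 0.0422%) and 0.0236% (0.0221% to 0.0250%), or 0.0318% ± 0.0116 (SD, n = 2). The intervals do not overlap, so the libraries differed in the summed share by more than counting error. Intervals and limits here cover counting error only, since amplified reads are not independent molecules.

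At least 10 counts in each library, the threshold for detection, were reached by 5 of the 6 members. Among all annotated miRNA genes 17.4% reached it, among the 814 in an intron of a gene on their own strand 22.0%, and among the 142 of the X chromosome 25.4%. Mir1912 was the member that did not reach it, and the unlisted Gm24627, also in an Htr2c intron, did not either.

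Mir1298, reported as a growth suppressor in tumour cells, was the most abundant member. It had 1029 counts in replicate 1, or 328 CPM (308 to 349), and 792 counts in replicate 2, or 181 CPM (169 to 194). Its mean was 255 ± 104 CPM (SD, n = 2), rank 150 of 2202 genes. It supplied 82.1% of the cluster's counts in replicate 1 (79.9% to 84.2%) and 76.8% in replicate 2 (74.1% to 79.4%). Counts of a gene add both arms of its hairpin, so mmu-miR-1298-5p and mmu-miR-1298-3p cannot be told apart.

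Mir1264 and Mir448 formed the next level. Mir1264 had 84 and 111 counts, or 26.8 CPM in replicate 1 and 25.4 in replicate 2, with a mean of 26.1 ± 1.01 CPM. Mir448, which has been tied to repression of the adipogenic factor Klf5, had 81 and 73 counts, or 25.8 and 16.7 CPM, with a mean of 21.3 ± 6.47. Their ranges overlapped, and the difference of the means, 4.82 CPM, was smaller than the SD of Mir448. Within each library Mir1264 had the higher count, by 1.04-fold in replicate 1 and 1.52-fold in replicate 2, and the counting intervals of the 2 genes overlapped in both. In replicate 2 that overlap was slight. Overlap of separate intervals is not a test of a difference, and the counts of Mir1264 and Mir448 were not tested against each other. Whether their order exceeds counting error was therefore not tested. The 2 genes lie in different introns of the host.

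Mir764 had 41 and 42 counts, or 13.1 CPM in replicate 1 and 9.59 in replicate 2 (11.3 ± 2.46). Its range lay below that of Mir448. Gm22650 had 18 and 12 counts, or 5.74 and 2.74 CPM (4.24 ± 2.12), and its range lay below that of Mir764. Gm22650 also had the lowest mean of the 36 detected miRNA genes of the X chromosome, and it falls below detection when 20 counts in each library are asked for.

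Mir1912 had 0 counts in replicate 1, which allows up to 0.957 CPM, and 1 count in replicate 2, or 0.228 CPM (0.00578 to 1.27). In replicate 1 Mir1298 was at least 343-fold higher than Mir1912, with the latter set at 3 counts. In replicate 2 the ratio was 792 (exact 95% interval 142 to 31321), from that single count. Mir1912 lies 1.07 kb before Mir1264 in the same intron, and Mir1264 had 84 and 111 counts.

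**Figure D2:**
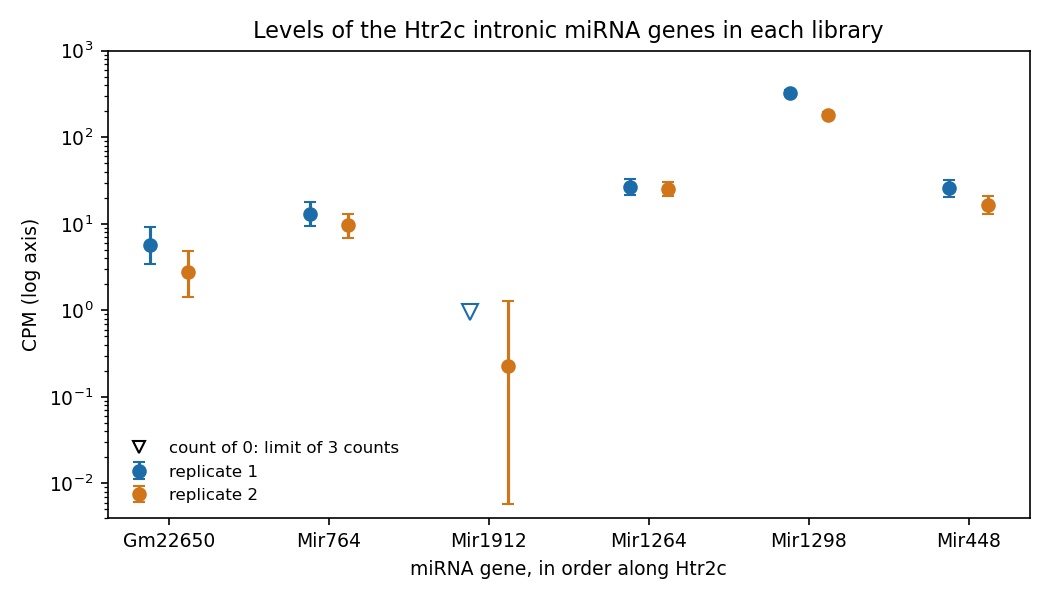
CPM on a log axis for each member in replicate 1 (blue) and replicate 2 (orange), with exact 95% intervals from the counts; an open triangle marks the limit of 3 counts for a count of 0. Mir1298 lies above all other members in both libraries, the intervals of Mir1264 and Mir448 overlap, and Mir1912 stands at 0 and 1 counts.

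The read counts of the members of intron 2 therefore spanned a wide range although 1 host intron holds them all. How read counts of different miRNAs relate to their molar amounts was not tested. In replicate 1 Mir1298 was 12.3-fold above Mir1264 (9.80 to 15.5), 25.1-fold above Mir764 (18.4 to 35.2) and 57.2-fold above Gm22650 (36.0 to 96.8). In replicate 2 these ratios were 7.14 (5.84 to 8.78), 18.9 (13.8 to 26.4) and 66.0 (37.6 to 128). Over Mir448, in the other intron, the ratios were 12.7 (10.1 to 16.1) and 10.8 (8.53 to 14.0). The ratio to Mir1264 was the 1 of these 4 whose intervals did not overlap between the libraries. The tables hold small RNA counts, so the level of Htr2c messenger RNA was not analysed here.

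Predicted folding energy per nt did not separate the abundant member from the one near 0, while the share of paired bases differed. The Mir1298 hairpin had a minimum free energy of -46.3 kcal/mol over 98 nt, or -0.472 per nt, and the Mir1912 hairpin -41.1 kcal/mol over 87 nt, also -0.472 per nt. Mir764 was at -0.459 and Mir448 at -0.451 per nt. Gm22650, at -0.361, was the only one of the 5 folded hairpins weaker than the median of the table, -0.406 over 1005 hairpins. In these folds 79.6% of bases were paired for Mir1298, 74.1% for Mir764, 66.7% for Mir1912, 66.1% for Mir448 and 64.8% for Gm22650. The median over the 1005 hairpins was 69.0%. Energies and pairing came from the reference sequence and were not measured. Whether folding bears on the levels was not tested.

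Each detected member had more CPM in replicate 1 than in replicate 2. Mir1298 was 1.90-fold higher in replicate 1 after TMM scaling (exact 95% interval 1.73 to 2.09; log2 ratio 0.93, exact binomial test, two-sided, adjusted p = 6.9e-42). Mir448 was 1.63-fold higher (1.17 to 2.26, adjusted p = 0.0064, same exact test). The ratios were 1.11 (0.825 to 1.49) for Mir1264, 1.43 (0.907 to 2.25) for Mir764 and 2.20 (1.00 to 5.00) for Gm22650, and these did not pass (adjusted p = 0.60, 0.17 and 0.066, exact binomial test). Mir1912 had too few counts to enter. P-values were adjusted over all 459 genes with at least 10 counts in either library.

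The null of this test is counting error alone, and 56.9% of the 459 genes passed it, 29.0% as higher in replicate 1. That share depends on the filter, with 34.2% of 757 genes when every gene with a count is tested and 61.2% of 384 when 10 counts in each library are asked for. Against that background, 2 of 5 members passing is no mark of the cluster. The median log2 ratio was 0.70 over the 5 members and -0.03 over the 459 genes, of which 221 were higher in replicate 1. The spread between the libraries amounted to a biological coefficient of variation of 0.385 over these genes. By size of ratio in either direction, Mir1298 was 109th of the 459. The test compares 2 libraries and not conditions.

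Markers of choroid plexus and ependyma, the ciliated lining of the ventricles, were also higher in replicate 1. All 7 listed genes were in the tables and 5 were detected. Their summed level was 3072 CPM in replicate 1 and 1165 CPM in replicate 2. Mir204, in an intron of the channel gene Trpm3 and abundant in choroid plexus, had 1148 and 744 CPM, a ratio of 1.62 (1.54 to 1.70). Mir34c, a miRNA of ciliated cells, had 1747 and 292 CPM, a ratio of 6.28 (5.90 to 6.68). Mir34b from the same locus had 43.4 and 16.7 CPM, a ratio of 2.73 (2.04 to 3.68).

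The further markers differed less between the libraries. Mir449a, of ciliated cells too, had 54.8 and 42.0 CPM, and Mir211, in an intron of Trpm1, had 79.7 and 69.9 CPM. Of the 5 detected markers 4 passed the exact binomial test as higher in replicate 1, and Mir211 did not (adjusted p = 0.064). Among all 459 tested genes 29.0% passed as higher in replicate 1, and 56.9% passed in either direction. Mir449b had 0 counts in both libraries, and Mir449c had 0 and 1. The log2 ratios of the 5 detected markers ran from 0.26 for Mir211 to 2.65 for Mir34c, with a median of 0.70. These markers were not alone in differing between the libraries. Neuronal genes moved both ways: of 6 detected, 3 passed as lower in replicate 1 (Mir128-1, Mir128-2 and Mir137, with ratios of 0.526, 0.711 and 0.750) and 2 as higher (Mir132 and Mir138-2, with 1.74 and 1.17), and their median log2 ratio was -0.22. Mir128 and Mir138 have several genomic copies, and multimapping reads were left out, so the counts of these copies are uncertain. Further sets were looked at after their values were seen. All 5 genes of the epithelial miR-200 family passed as higher in replicate 1, with ratios from 1.38 for Mir200b to 18.2 for Mir141. The 3 genes of the sensory Mir183 cluster did so too, from 2.65 to 6.24. Mir10a and Mir10b, from Hox gene clusters, passed as lower, at 0.282 and 0.318.

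With 2 libraries no relation between markers and members can be tested, and the part of any of these cells in the members' levels was not tested. In tissue, fewer cells of a type and less RNA per cell cannot be told apart.

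**Figure D3:**
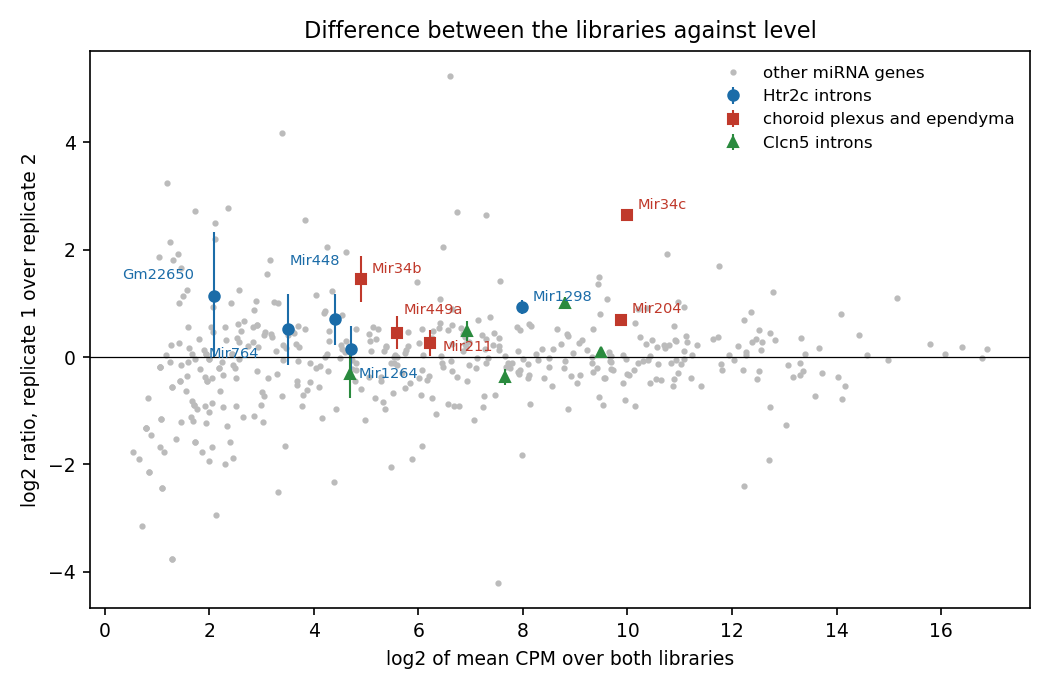
Log2 ratio of replicate 1 over replicate 2 against the log2 of mean CPM, for 459 miRNA genes less 5 with 0 counts in one library; bars are exact 95% intervals for members (blue), choroid plexus and ependyma markers (red) and Clcn5 intronic genes (green). The 5 detected members and the 5 detected markers lie above 0, and Clcn5 genes lie on both sides.

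A second set of X-linked miRNAs, in introns of the chloride transporter gene Clcn5, gives a comparison for an intronic cluster. Of 6 listed genes 5 were in the tables, and all 5 were detected. Their summed level was 1646 CPM in replicate 1 and 1385 in replicate 2, or 1515 ± 185, against 318 ± 116 for the Htr2c members. Mir532 led with 726 and 714 CPM, and Mir362 was lowest with 22.3 and 29.2 CPM. The Clcn5 genes thus ran from 25.8 to 720 CPM in their means, and the Htr2c members from 0.114 to 255 CPM.

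The Clcn5 genes moved both ways between the libraries. Mir501, Mir500 and Mir532 passed as higher in replicate 1, with ratios of 2.02, 1.40 and 1.07, and Mir188 passed as lower, with 0.776 (exact binomial test, adjusted p = 1.5e-85, 1.9e-06, 0.031 and 4.4e-06). Mir362 did not pass (ratio 0.801, adjusted p = 0.21, same exact test). Among all 459 tested genes 56.9% passed in either direction. Whether the Htr2c and Clcn5 genes differ in this respect was not tested.

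On the X chromosome, Mir1298 was 13th of 142 miRNA genes by mean level, Mir1264 was 24th, Mir448 26th, Mir764 29th, Gm22650 36th and Mir1912 50th. Detected miRNA genes of the chromosome had a median of 114 CPM, which Mir1298 exceeded and the other members did not reach. Among the 814 intronic miRNA genes Mir1298 was 66th.

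**Figure D4:**
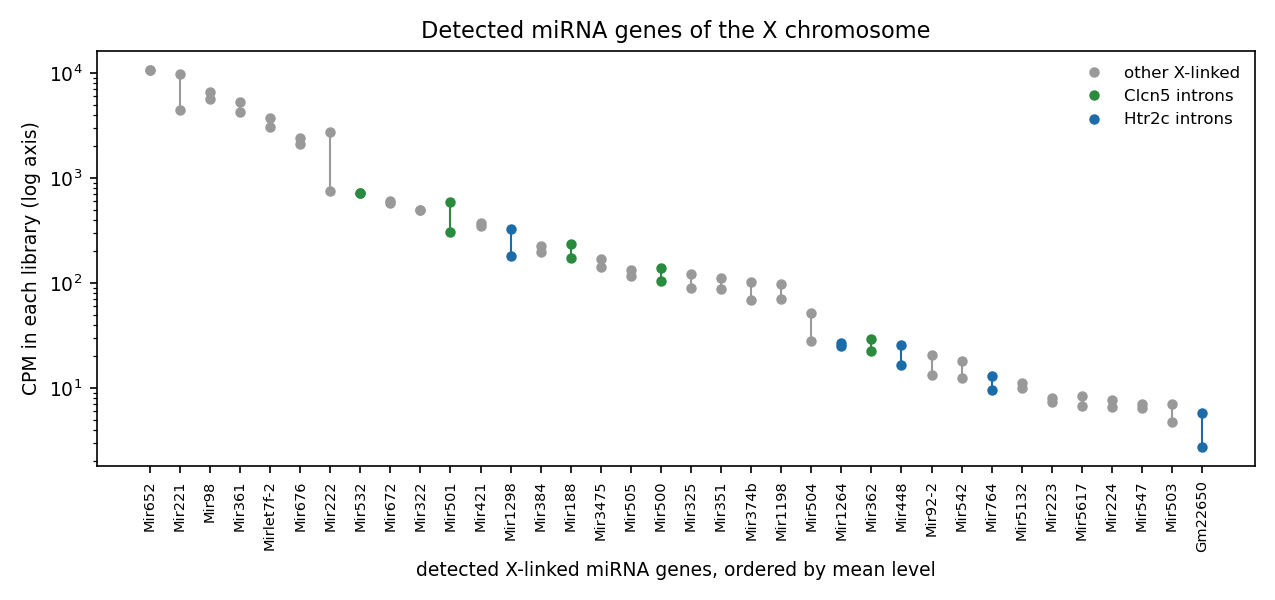
CPM in both libraries (points joined by a line, log axis) for the 36 detected miRNA genes of the X chromosome in order of mean level, with Htr2c members in blue and Clcn5 genes in green. Mir1298 is 13th, Mir1264, Mir448 and Mir764 lie in the lower part, and Gm22650 is last.

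The 3 genes nearest to Mir1298 in level, by distance in log2(CPM + 1) over the 2 libraries, were Mirlet7f-1, Mir145a and Mirlet7a-1. Mirlet7f-1 had 276 and 197 CPM, Mir145a 284 and 212 CPM, and Mirlet7a-1 331 and 227 CPM, at distances of 0.278, 0.305 and 0.324. Mir1298 itself had 328 and 181 CPM. Mirlet7f-1 and Mirlet7a-1 have further genomic copies, so their counts are uncertain. With 2 libraries this likeness is mainly one of level.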

How the data were processed

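Each library came with a deposited table of read counts made by the authors, without normalization: 3 count columns and 4 summary lines. The deposited notes name mm10 and M21. Not given in the sources used here were the aligner, the counter and adapter trimming. The columns were taken, from their totals, as unstranded, sense and antisense, and the sense column held 93.4% and 91.9% of stranded counts. Multimapping reads (36.3% and 41.7%), unmapped and unassigned reads stayed out of library sizes. Strain variants were not considered.

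CPM used sense counts. The counts of a gene in both libraries were compared by an exact binomial test on TMM-scaled library sizes (edgeR 4.0.16 in R 4.3.3, with DESeq2 1.42.0 as an alternative) with Benjamini-Hochberg adjustment. On simulated counts of 459 genes the test called 79.0% of 2-fold, 100% of 4-fold and 1.16% of unchanged genes. The simulated counts held counting error alone (Poisson), without spread between replicates. The 1.16% is therefore not the error rate for these libraries. Alternatives covered count minimum, strand column, denominator, scaling, filter and each replicate left out. Hairpins were folded with RNAfold 2.7.2. Sequences came from RefSeq, where the Mir1264 hairpin, mmu-miR-1264-5p and mmu-miR-1912-5p had no entry. Named genes were all members, listed genes with 10 counts in either library, the 3 nearest to the most abundant member, and genes sharing a seed. Gm24627, Mir449b, Mir449c, Mir153, Mir499, Mir6335 and the miR-200, Mir183 and Mir10 genes are named outside this rule, after their values were seen. Members and lists were chosen with earlier results of these data known. As a tissue check, 6 of 9 neuronal genes were detected, with a sum of 35946 and 34288 CPM. Mir132 led (21687 and 13106), Mir138-1 was at 2096 and 2244, and the 3 Mir124a copies had at most 8 counts each. Mir124a, Mir128 and Mir138 have several genomic copies, and multimapping reads were left out, so their counts are uncertain. Low counts of the Mir124a copies therefore do not show a low level of their miRNA. Other software was matplotlib 3.10.9, pandas 2.3.3, scipy 1.17.1, numpy 2.4.6 and Python 3.11.15.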

Additional observations from a re-analysis of the deposited data

How the results depend on the processing

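No paired analysis was possible because there is 1 group. The number of members detected stayed between 4 and 5 under the 7 alternatives tried. Divided by all reads of a library in place of counts on miRNA genes, the mean levels became 82.7 for Mir1298, 8.56 for Mir1264, 6.93 for Mir448, 3.70 for Mir764 and 1.37 for Gm22650 per 1000000 reads, and the summed share 0.0103%. Counted without regard to strand, Mir1264 was at 28.3 CPM, because the library totals are smaller there while its counts are the same. Of the 24 alternatives for levels that use both libraries, these included, 18 moved a mean by no more than its SD. Without a replicate a level is that of the other library, for example 181 or 328 CPM for Mir1298 and 2.74 or 5.74 for Gm22650, which with 2 libraries is no test of stability. The ratio between the libraries kept its direction and its side of the threshold for each of the 5 members under 5 alternatives (no factor, DESeq2 factors, both filters, unstranded), and the genes called ran from 235 of 384 tested to 268 of 459, with 259 of 757 when every gene with a count was tested. It has no value without either replicate. Depth limits Mir1912, with 0 and 1 counts, and Gm22650, with 18 and 12, most.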

Other observations

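The seed of mmu-miR-448-3p matches that of a well-known neuronal miRNA in its first bases. Bases 2 to 7 of mmu-miR-448-3p are also those of mmu-miR-153-3p, which is known to repress the amyloid precursor protein gene App. This comparison over bases 2 to 7 was chosen after the full seeds had been compared. Those bases are in capitals here.
mmu-miR-153-3p: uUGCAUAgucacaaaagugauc
Mir153, in an intron of Ptprn2, had 567 and 709 counts, or 181 CPM in replicate 1 and 162 in replicate 2 (171 ± 13.3, SD, n = 2), against 21.3 ± 6.47 for Mir448. The ranges of the 2 genes did not overlap. Mir153 was thus the more abundant gene with these seed bases in both libraries, while Mir6335, whose mature miRNA shares them too, had 0 counts in both. Counts of a gene add both arms, so the arms that carry these bases were not measured separately.

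Mature miRNAs sharing bases 2 to 7 were also found for mmu-miR-448-5p, with mmu-miR-499-3p, and for mmu-miR-1298-5p, with mmu-miR-12187-3p. Mir499 had 24 and 58 counts, or 7.65 and 13.2 CPM.

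Without Mir1298, the members summed to 224 counts in replicate 1 and 239 in replicate 2, or 71.4 and 54.6 CPM. The share of Mir1264 within the cluster was 6.70% in replicate 1 (exact 95% interval 5.38% to 8.23%) and 10.8% in replicate 2 (8.94% to 12.8%), and these intervals did not overlap. The level of Mir1264 itself was 26.8 and 25.4 CPM, so its lower share in replicate 1 goes with the higher level of Mir1298 there. For Mir448 they did overlap, at 6.46% (5.17% to 7.97%) and 7.08% (5.59% to 8.82%).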
